A study of Homo sapiens with 36 samples.

Results

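The 35 genes described here are parts and targets of the NF-kB system: 5 transcription factor subunits, 6 IkB family proteins, 5 further brakes on the signal, 6 adaptors, ligases and kinases, 4 cytokines, 3 surface proteins and 6 other induced genes. They were matched by gene symbol, and all 35 were found among the 58735 genes counted. Levels were measured by RNA-seq of polyadenylated RNA in 3 established human head and neck squamous cell carcinoma lines, HN4, HN6 and Cal27. One experiment compared untreated cells of each line with cells given recombinant human IL-8 at 100 ng per ml for 24 hours, to see how lines with different amounts of the IL-8 receptor CXCR1 respond. The other compared cells transfected with an ACLY plasmid, for the enzyme that makes cytosolic acetyl-CoA, with cells given the vector plasmid, to find what lies downstream of ACLY. That gave 12 groups of 3 libraries, all from cells grown in medium with exosome-depleted serum. Whether the 3 numbered libraries of a group came from separate cultures is not in the labels, and the p-values therefore rest on a spread between libraries that may be technical.

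NF-kB factors are dimers of the subunits encoded by NFKB1, NFKB2, RELA, RELB and REL, and IkB proteins such as NFKBIA hold them in the cytoplasm until a receptor signal has the IkB protein degraded. The freed dimers enter the nucleus and switch on cytokines, survival genes and their own brakes, among them NFKBIA and the ubiquitin-editing enzyme TNFAIP3, also called A20. In squamous carcinoma the pathway is known for inflammatory cytokine output and for survival under TNF.

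Many of these genes carry the decameric kB site, the DNA sequence the dimers bind, next to their start. RefSeq promoter windows of GRCh38.p14, from 250 bases before to 50 bases after a start site, were found for 31 of the 35 genes, in 56 windows. NFKBIE, RELB, CCL2 and RIPK2 were not matched. A match to the general kB consensus on either strand stood in 27 of the 56 windows (48.2%), against 3956 of 35116 windows of all genes (11.3%). A narrower motif, 3 G bases, then any 3 bases, then TTCC, was also searched on both strands and can overlap the first. It stood in 19 of 56 (33.9%) against 6.52% of all windows. Counted by gene, 19 of 31 members had a consensus match (61.3%, against 13.3% of all genes) and 16 had the narrower one (51.6%, against 7.83%). A match is a run of letters and not a measured binding site. The 6 stretches below belong to members with a match that were called in the most comparisons below, leaving out stretches inside an annotated UTR. They run 5′ to 3′ on the strand of the gene, with consensus matches in capitals.
BIRC3, chr11:102317260-102317373 plus: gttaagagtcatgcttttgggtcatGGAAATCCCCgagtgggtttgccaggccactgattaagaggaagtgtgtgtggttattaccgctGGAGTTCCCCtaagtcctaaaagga
NFKBID, chr19:35899907-35899966 minus: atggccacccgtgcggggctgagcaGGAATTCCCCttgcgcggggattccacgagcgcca
CYLD, chr16:50741872-50741931 plus: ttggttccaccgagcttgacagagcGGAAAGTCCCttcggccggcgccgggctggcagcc
NFKB1, chr4:102501285-102501328 plus: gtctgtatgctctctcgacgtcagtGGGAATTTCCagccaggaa
CCL20, chr2:227813738-227813797 plus: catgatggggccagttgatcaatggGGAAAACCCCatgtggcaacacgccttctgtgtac
IRF1, chr5:132490799-132490848 minus: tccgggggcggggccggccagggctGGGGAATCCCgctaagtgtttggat

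Library totals ran from 16570601 to 20232735 counted reads. Levels below are CPM, the reads of a gene scaled to a common library size, with TMM factors over the 36 libraries, and 3 reads, the limit that a count of 0 allows, equal 0.149 to 0.184 CPM. Those limits cover counting error only. Some libraries went against their labels or stood apart. ACLY stood at 1497 to 1515 CPM in the HN4 libraries labelled vector and at 313.8 to 370.2 CPM in those labelled ACLY, the opposite of the labels, so directions in HN4 are given as labelled. In HN6 the vector and ACLY libraries held 264.6 to 273.8 and 2137 to 2251 CPM of ACLY, and in Cal27 they held 217.7 to 241.7 and 1857 to 1934 CPM. With IL-8, ACLY also stood high in HN4 (1332 to 1366 CPM, against 369.1 to 379.5 untreated) and in Cal27 (1046 to 1253 against 228.6 to 238.5), but not in HN6 (220.9 to 227.0 against 276.5 to 284.8). A set of 12 genes, none of them members, had 20 CPM or more in untreated HN4 and 0.3 CPM or less in both other untreated lines. Their median reached 0.293 ± 0.022 (SD, n = 3) of its HN4 level in the IL-8 group of Cal27 and 0.545 ± 0.00298 in the ACLY plasmid group of Cal27, against 0.000163 in untreated Cal27. The median of the 13 matching Cal27-only genes stood at 0.597 and 0.246 of its untreated Cal27 level. Library 3 of Cal27 with IL-8 had 1.06% mitochondrial reads, against 3.37% and 3.59% in libraries 1 and 2, and library 3 labelled HN4 ACLY had 2.15% against 5.71% and 6.03%. Epithelial markers summed to 942.9 to 6329 CPM in all libraries, while the leukocyte list summed to 4.02 to 9.90 CPM in HN4 and HN6 and to 94.2 to 178 CPM in Cal27. In untreated Cal27, 3 of the 7 leukocyte markers were counted as detected, while PTPRC and LYZ had 0 reads. The Cal27 sum was not broken down by marker.

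The vector plasmid gave a check of the untreated levels. In a fit of all 36 libraries, the HN6 vector group differed from untreated HN6 in 0 of 35 members by edgeR. There 0 members had an unadjusted p under 0.05, and DESeq2 called 0. The Cal27 vector group differed from untreated Cal27 in 0 members by edgeR, with 2 at an unadjusted p under 0.05 and 0 by DESeq2. Of all 19349 genes, edgeR also called 0 in either line, so the members did as all genes did. The HN4 libraries labelled vector differed from untreated HN4 in 19 members by edgeR, 1 higher and 18 lower, where 26% of 19349 genes were called. Against HN4 with IL-8 the same libraries differed in 0 members by edgeR (1 at an unadjusted p under 0.05, 0 by DESeq2), where 0.0879% of all genes were called. The libraries labelled HN4 ACLY differed from untreated HN4 in 3 members, TNF, SOD2 and PTGS2, where 0.894% of all genes were called. These fits join 2 experiments, so the experiment and the plasmid cannot be told apart in them.

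**Figure D1:**
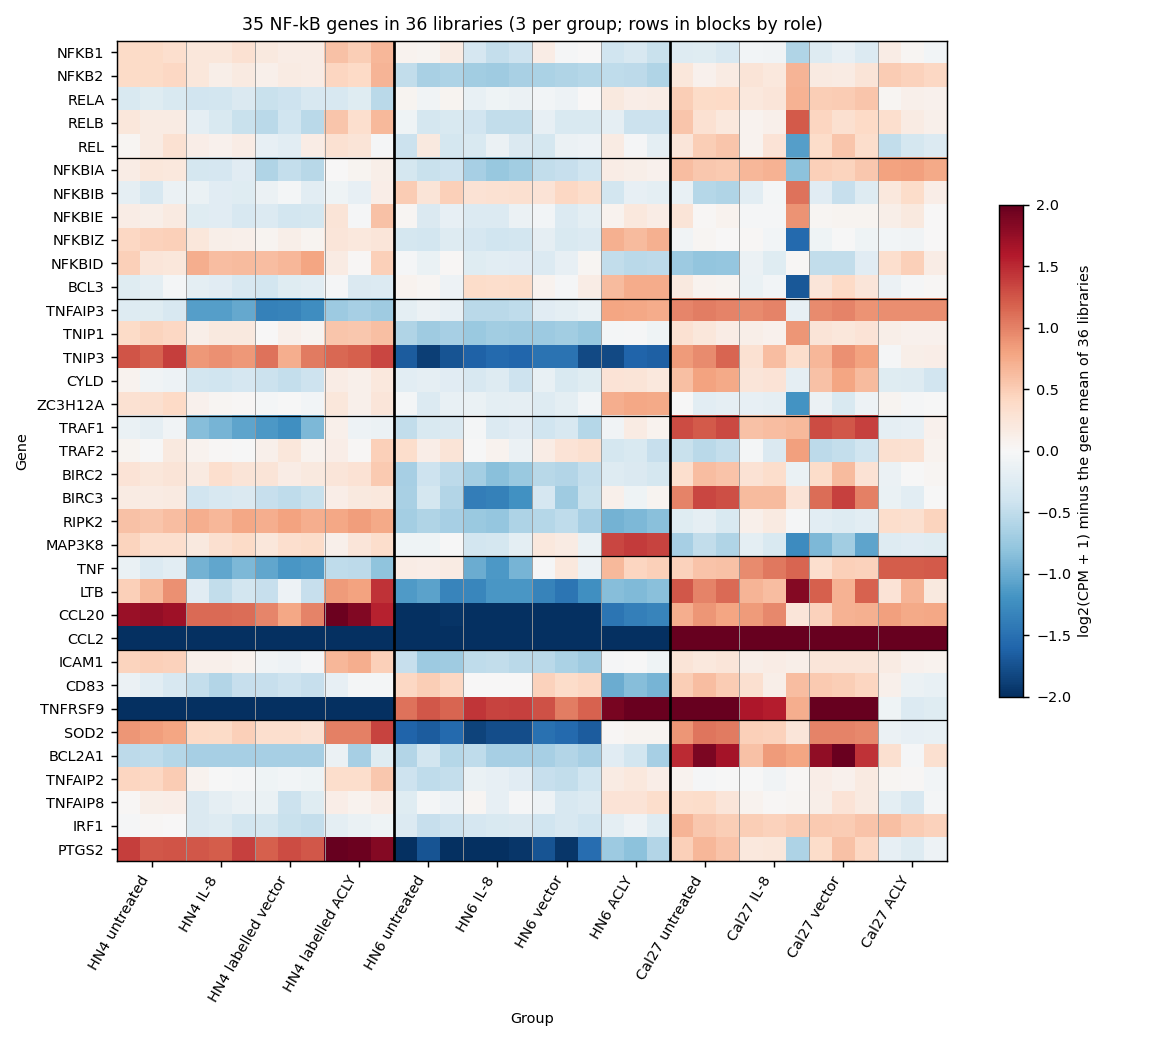
Level of each of the 35 genes in each of the 36 libraries, drawn as log2(CPM + 1) minus the gene's mean over all libraries, with genes in blocks by role and libraries in their 12 groups. Colours stop at 2 either way. Library 3 of Cal27 with IL-8 differs from libraries 1 and 2 of its group across many rows, CCL2 is high in Cal27, and TNFRSF9 is high in the Cal27 controls.

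The untreated lines differed in most members, as they did in most of all genes tested. Against untreated HN4, 22 of 35 members were lower in untreated HN6 and 5 higher by edgeR, where 34.7% of 18398 genes were lower and 32.4% higher. Cal27 held more of 14 members and less of 10 than HN4, where 32.2% of all genes were higher and 31.4% lower. Cal27 held more of 25 and less of 5 than HN6, where 35.3% were higher and 33.1% lower. The median log2 difference over the members was -0.45 for HN6 against HN4, 0.20 for Cal27 against HN4 and 0.78 for Cal27 against HN6, beside -0.033, 0.002 and 0.03 over all genes. Of these calls, 19 of 27, 19 of 24 and 28 of 30 were kept whichever library was left out, and 25, 20 and 28 under the other settings, which are DESeq2, other scalings and filters, a replicate block and a fit of all 36 libraries. Between the vector groups, with HN4 as labelled, HN6 against HN4 had 15 members lower and 10 higher (34.6% of all genes lower and 34.7% higher), Cal27 against HN4 had 23 higher and 10 lower (35.6% higher and 36.1% lower), and Cal27 against HN6 had 28 higher and 4 lower (36.7% higher and 36.6% lower).

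The monocyte chemokine CCL2 (chromosome 17, 34255218 to 34257203, plus strand, hg38) separated the lines most. Untreated Cal27 held it at 949.6, 1015 and 1009 CPM, HN4 at 1.02, 0.902 and 1.11 CPM and HN6 at 0 reads in every library. Cal27 had 57494 reads of it over 3 libraries and HN4 55, so against the limit for the HN6 group (3 reads over the group, 0.0576 CPM) Cal27 was at least 17200-fold higher and HN4 at least 17.5-fold higher. TNFRSF9, the costimulatory receptor CD137, stood at 62.0, 67.0 and 68.1 CPM in untreated Cal27 and 20.4, 22.8 and 21.5 CPM in HN6. In HN4 it had 7, 0 and 4 reads, near the limit, so no fold against HN4 is given. BCL2A1, an anti-apoptotic BCL2 relative, stood at 3.46, 4.84 and 4.02 CPM in untreated Cal27 and had 2, 2 and 1 reads in HN4 and 1, 4 and 1 in HN6.

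CCL20, LTB and PTGS2 were lowest in HN6, while TNF was not, at 23.5, 23.1 and 23.7 CPM in untreated HN6 against 19.0, 17.3 and 18.1 in HN4. CCL20, the ligand of the receptor CCR6, stood at 68.8, 70.5 and 67.7 CPM in HN4, 3.06, 3.43 and 4.43 in HN6 and 34.0, 37.9 and 35.5 in Cal27. PTGS2, the inducible cyclooxygenase, followed the same order, with 40.6, 36.6 and 37.3 CPM in HN4, 2.60, 3.83 and 2.13 in HN6 and 21.1, 24.1 and 22.8 in Cal27. No untreated HN6 library of either gene came near the lowest library of the other lines, and against HN4 the log2 differences were -4.26 (SE 0.18, edgeR adjusted p = 4.85e-13) for CCL20 and -3.75 (SE 0.21, edgeR adjusted p = 2.34e-11) for PTGS2. LTB, the membrane anchor of lymphotoxin, had 0.679, 0.742 and 0.473 CPM in HN6 against 4.13, 4.73 and 5.94 in HN4 and 7.71, 6.31 and 7.04 in Cal27 (log2 change -2.96, SE 0.39, edgeR adjusted p = 2.53e-06 against HN4). TNIP3, a partner of TNFAIP3, had 0.227, 0.0571 and 0.177 CPM in HN6, values at or near the limit of a few reads, against 8.27, 7.78 and 9.14 in HN4. Cal27 exceeded HN6 in LTB (log2 change 3.49, SE 0.37, edgeR adjusted p = 1.96e-07), CCL20 (log2 change 3.33, SE 0.17, edgeR adjusted p = 1.16e-11) and PTGS2 (log2 change 3.01, SE 0.21, edgeR adjusted p = 4.77e-10). SOD2, the mitochondrial superoxide dismutase (chromosome 6, 159669057 to 159745186, minus strand), stood at 889.5, 865 and 841 CPM in HN4, 158, 152 and 165 in HN6 and 893, 1018 and 992 in Cal27. Every Cal27 library of SOD2 was slightly above every HN4 one, and HN6 lay far below both (log2 change 2.64, SE 0.073, edgeR adjusted p = 3.33e-15 for Cal27 against HN6).

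Against HN4, 3 of 6 adaptors were higher in untreated Cal27 and 3 lower (TRAF2, RIPK2 and MAP3K8), and of the 5 brakes 2 were higher (TNFAIP3 and CYLD) and 1 lower (ZC3H12A). Over all genes 32.2% were higher and 31.4% lower in that comparison. TRAF1, an adaptor of TNF receptors, stood at 33.1, 31.4 and 33.8 CPM in untreated Cal27, 11.6, 11.3 and 12.2 in HN4 and 8.89, 10.2 and 10.3 in HN6. BIRC3, the ubiquitin ligase cIAP2 (chromosome 11, 102317450 to 102339403, plus strand), stood at 181, 228 and 221 CPM in Cal27, 102, 101 and 102 in HN4 and 57.4, 70.7 and 59.9 in HN6. Both were higher in Cal27 than in HN4, with log2 differences of 1.5 (SE 0.10, edgeR adjusted p = 1.84e-10) for TRAF1 and 1.06 (SE 0.10, edgeR adjusted p = 4.6e-08) for BIRC3. NFKBID, a nuclear IkB protein, ran the other way, at 3.72, 3.52 and 3.57 CPM in Cal27 against 9.85, 8.17 and 8.15 in HN4 (log2 change -1.26, SE 0.12, edgeR adjusted p = 4.21e-08).

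The subunits were all present in every library. The ratio of their highest to their lowest group mean ran from 1.81 for REL to 2.31 for NFKB2, and some other members ranged less. NFKB1 (chromosome 4, 102501329 to 102617302, plus strand) encodes the p105 precursor of p50. In HN4, NFKB1 stood at 120.0, 120.5 and 117 CPM untreated, 108, 108 and 114 with IL-8, 106, 102 and 102 labelled vector and 139, 130.3 and 146 labelled ACLY. HN6 held NFKB1 at 97.2, 95.6 and 104 CPM untreated, 72.8, 66.1 and 68.8 with IL-8, 102, 90.9 and 92.4 with vector and 69.8, 73.4 and 67.5 with the ACLY plasmid. Cal27 held NFKB1 at 76.7, 77.7 and 73.9 CPM untreated, 88.8, 87.6 and 60.5 with IL-8, 77.0, 82.2 and 76.4 with vector and 102, 95 and 88.8 with the ACLY plasmid. Both HN6 treatments left NFKB1 below every HN6 control library, while the ACLY groups of HN4, as labelled, and of Cal27 stood above their vector groups. NFKB2 encodes the precursor of p52, the product of the slower, non-canonical branch. In HN4, NFKB2 stood at 149, 149 and 153 CPM untreated, 133, 124 and 129 with IL-8, 123, 128 and 126 labelled vector and 153, 151 and 183 labelled ACLY. HN6 held NFKB2 at 80.6, 72.5 and 74.1 CPM untreated, 69.9, 69.2 and 72.3 with IL-8, 73.6, 75.2 and 76.7 with vector and 80.0, 79.3 and 74.6 with the ACLY plasmid. Cal27 held NFKB2 at 134, 122 and 128 CPM untreated, 136, 132 and 183 with IL-8, 129, 128 and 137 with vector and 163, 158 and 152 with the ACLY plasmid. Every HN6 library of NFKB2 lay below every library of the other lines.

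RELA encodes p65, the main activating subunit. In HN4, RELA stood at 87.4, 91.3 and 88.0 CPM untreated, 82.6, 83.5 and 88.5 with IL-8, 79.1, 81.3 and 86.8 labelled vector and 86.5, 92.0 and 74.5 labelled ACLY. HN6 held RELA at 112, 104 and 113 CPM untreated, 97.4, 102 and 100.0 with IL-8, 104, 101 and 109 with vector and 124, 119 and 119.9 with the ACLY plasmid. Cal27 held RELA at 154, 142 and 144 CPM untreated, 126, 128 and 177 with IL-8, 154, 155 and 159 with vector and 112, 117 and 115 with the ACLY plasmid. Group means of RELA were highest in the Cal27 controls, and the ACLY plasmid moved it up in HN6 (log2 change 0.21, SE 0.06, edgeR adjusted p = 0.00308) and down in Cal27 (log2 change -0.46, SE 0.059, edgeR adjusted p = 2.92e-08). RELB pairs with p52 in the non-canonical branch. In HN4, RELB stood at 42.0, 40.0 and 40.1 CPM untreated, 31.4, 28.8 and 25.8 with IL-8, 24.2, 26.9 and 24.4 labelled vector and 53.1, 45.4 and 56.8 labelled ACLY. HN6 held RELB at 33.6, 27.9 and 28.7 CPM untreated, 27.3, 25.1 and 25.1 with IL-8, 31.7, 28.6 and 28.7 with vector and 31.5, 26.4 and 26.1 with the ACLY plasmid. Cal27 held RELB at 52.7, 44.4 and 41.4 CPM untreated, 37.7, 38.3 and 85.2 with IL-8, 48.4, 44.9 and 47.3 with vector and 45.5, 40.1 and 38.6 with the ACLY plasmid. The Cal27 mean with IL-8 rests on library 3, which held more RELB than any other library of the series. REL encodes c-Rel and was the scarcest subunit. In HN4, REL stood at 17.4, 19.0 and 21.1 CPM untreated, 18.6, 18 and 18.8 with IL-8, 15, 14.4 and 18.8 labelled vector and 21.1, 20.4 and 16.6 labelled ACLY. HN6 held REL at 12.3, 19.5 and 12.9 CPM untreated, 13.5, 15.4 and 13.6 with IL-8, 13.0, 15.4 and 15.6 with vector and 19.0, 16.6 and 14.6 with the ACLY plasmid. Cal27 held REL at 20, 24.2 and 25.3 CPM untreated, 17.6, 20.5 and 7.32 with IL-8, 21.9, 25.3 and 21.6 with vector and 11.7, 13.0 and 13.8 with the ACLY plasmid. REL fell with the ACLY plasmid in Cal27 (log2 change -0.85, SE 0.12, edgeR adjusted p = 1.14e-07), and its Cal27 call with IL-8 (log2 change -0.62, SE 0.24, edgeR adjusted p = 0.0465) was lost without library 3, where the log2 change was -0.30 (edgeR adjusted p = 0.08).

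NFKBIA (chromosome 14, 35401511 to 35404749, minus strand) encodes IkB alpha, the feedback inhibitor. In HN4, NFKBIA stood at 212, 223 and 220.1 CPM untreated, 149, 151 and 164 with IL-8, 126, 137 and 129 labelled vector and 192, 198 and 208 labelled ACLY. HN6 held NFKBIA at 149, 140.5 and 143 CPM untreated, 120.2, 113 and 118 with IL-8, 135, 139 and 144 with vector and 212, 207 and 204 with the ACLY plasmid. Cal27 held NFKBIA at 295, 278 and 275 CPM untreated, 304, 309 and 108 with IL-8, 265, 260.5 and 278 with vector and 333, 339 and 322 with the ACLY plasmid. The ACLY group was above the vector group in HN6 and Cal27, and in HN4 as labelled, with log2 changes of 0.58, 0.30 and 0.61 and edgeR adjusted p-values of 5.47e-12, 2.56e-06 and 6.58e-12. With the HN4 groups exchanged its change would be -0.61, and in a fit of all 36 libraries the Cal27 call was lost (log2 change 0.31, edgeR adjusted p = 0.157). TNFAIP3 (chromosome 6, 137867188 to 137883312, plus strand) edits ubiquitin chains and ends signalling. In HN4, TNFAIP3 stood at 210.4, 212 and 200.4 CPM untreated, 116, 116 and 122 with IL-8, 97.8, 99.0 and 105 labelled vector and 151, 157 and 153 labelled ACLY. HN6 held TNFAIP3 at 219, 230.0 and 225 CPM untreated, 173, 172 and 175 with IL-8, 215, 218 and 227 with vector and 433, 428 and 421 with the ACLY plasmid. Cal27 held TNFAIP3 at 493, 510.2 and 502 CPM untreated, 481, 497 and 224 with IL-8, 483, 501 and 469 with vector and 481, 478 and 480.5 with the ACLY plasmid. Cal27 controls held the most TNFAIP3 and HN4 libraries labelled vector the least, and library 3 of Cal27 with IL-8 stood at less than the other libraries of that line.

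**Figure D2:**
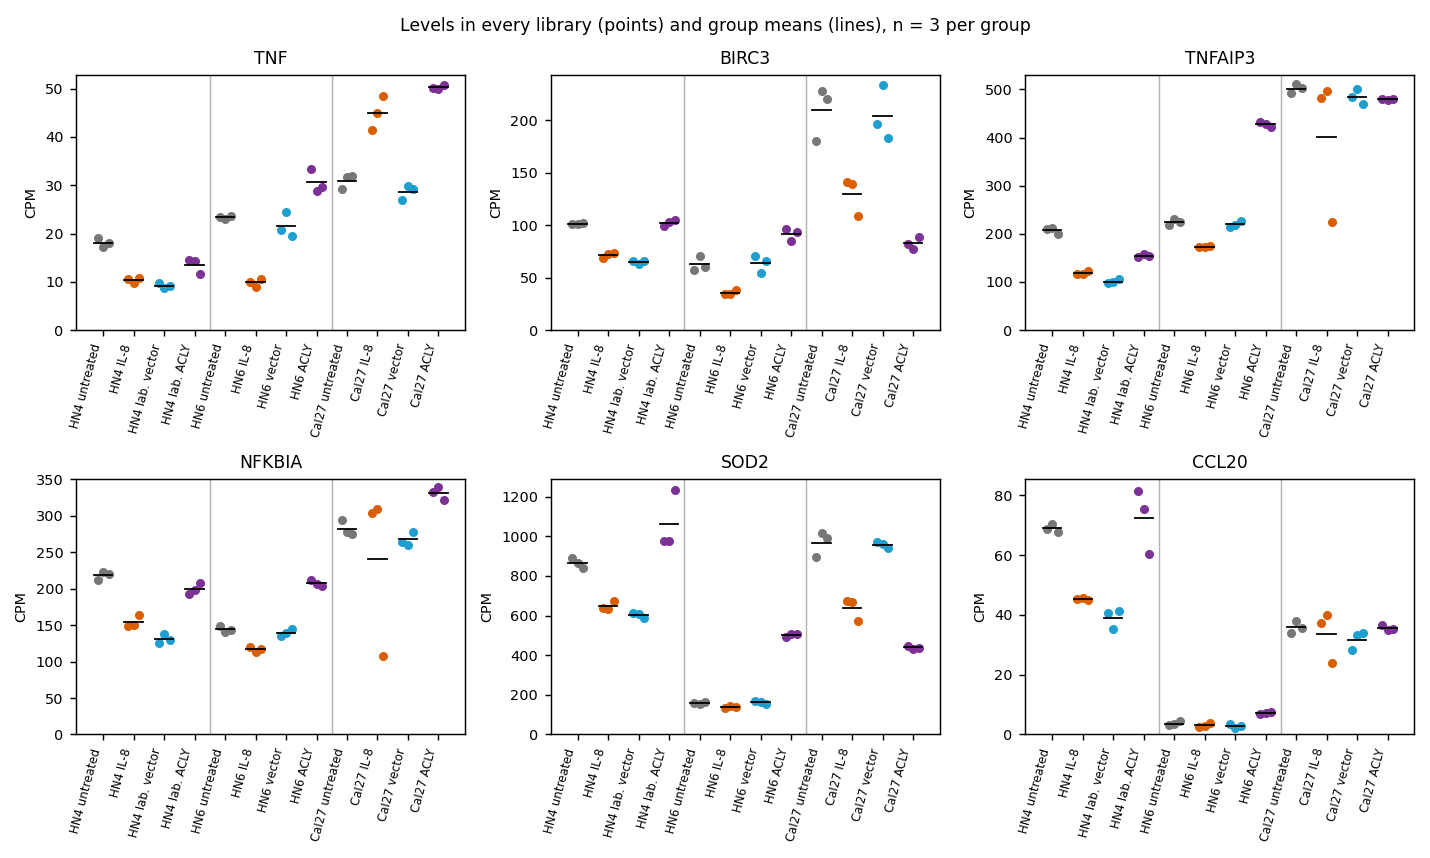
Level in CPM of TNF, BIRC3, TNFAIP3, NFKBIA, SOD2 and CCL20 in each library, 1 panel a gene, with the 12 groups along the horizontal axis, points for libraries and a line for the group mean. TNF stands lower with IL-8 in HN4 and HN6 and higher in Cal27, and SOD2 stands at 494 to 505 CPM in HN6 with the ACLY plasmid against 152.6 to 170.8 CPM with vector.

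With IL-8 in HN4, 13 of the 35 members were lower, 1, NFKBID, was higher and 21 did not pass by edgeR, where 7.09% of all genes were lower and 6.89% higher. The median member changed by -0.31 on the log2 scale and the median gene by -0.008. By role, 3 of 5 brakes, 2 of 6 adaptors and 3 of 4 cytokines fell. So did 1 of 3 surface proteins and 4 of 6 other induced genes. The 5 subunits had edgeR adjusted p-values from 0.155 for NFKB2 to 0.937 for REL. Library 3 of Cal27 with IL-8 enters the same fit. Without it RELB (log2 change -0.50, edgeR adjusted p = 1.72e-05) and NFKB2 (log2 change -0.23, edgeR adjusted p = 0.000449) passed as lower. NFKB1, RELA and REL still did not pass. TNF, the cytokine that is both trigger and product of the pathway (chromosome 6, 31575567 to 31578336, plus strand), stood at 19.0, 17.3 and 18.1 CPM untreated and 10.5, 9.68 and 10.8 with IL-8. No IL-8 library reached the lowest untreated one (log2 change -0.81, SE 0.093, edgeR adjusted p = 2.05e-05). LTB stood at 4.13, 4.73 and 5.94 CPM untreated and 2.15, 1.62 and 1.84 with IL-8, the steepest fall among the named members (log2 change -1.40, SE 0.32, edgeR adjusted p = 0.00806). TRAF1 went from 11.6, 11.3 and 12.2 to 6.69, 6.27 and 5.69 CPM, again without overlap (log2 change -0.91, SE 0.10, edgeR adjusted p = 2.23e-05). TNFAIP3, with the levels given above, fell as well (log2 change -0.81, SE 0.18, edgeR adjusted p = 0.00509). CCL20 went from 68.8, 70.5 and 67.7 to 45.4, 45.6 and 45.1 CPM, with the 3 IL-8 libraries within 1 CPM of each other (log2 change -0.60, SE 0.14, edgeR adjusted p = 0.00853). BIRC3, whose promoter stretch above holds 2 kB matches, went from 102, 101 and 102 to 69.0, 72.3 and 73.7 CPM (log2 change -0.50, SE 0.10, edgeR adjusted p = 0.00322). Of the 14 calls 10 were kept whichever library was left out, and those of NFKBID, TNIP3, CYLD and TNFAIP8 were not. Under the other settings 9 were kept, IRF1 being lost as well.

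With IL-8 in HN6, 4 members fell (NFKB1, BIRC3, TNF and CD83), 1 rose (TNFAIP2) and 30 did not pass, where 7.81% of all genes were lower and 7.61% higher by edgeR. The members' median log2 change was -0.093, against 0.002 over all genes. TNF stood at 23.5, 23.1 and 23.7 CPM untreated and 10.1, 8.98 and 10.6 with IL-8, a wide gap with no overlap (log2 change -1.23, SE 0.092, edgeR adjusted p = 1.56e-07). BIRC3 went from 57.4, 70.7 and 59.9 to 34.0, 34.9 and 38.3 CPM (log2 change -0.80, SE 0.10, edgeR adjusted p = 6.32e-05). CD83, a surface glycoprotein of activated cells, went from 29.9, 31.8 and 30 to 22.5, 22.3 and 22.5 CPM, the IL-8 libraries lying almost on one value (log2 change -0.43, SE 0.11, edgeR adjusted p = 0.0114). NFKB1, with the levels given above, fell as well (log2 change -0.50, SE 0.10, edgeR adjusted p = 0.00262). TNFAIP2, a TNF-induced gene, stood at 344, 324 and 329 CPM untreated and 416, 409 and 392 with IL-8, so every IL-8 library was above every untreated one (log2 change 0.30, SE 0.063, edgeR adjusted p = 0.00355). All 5 calls were kept whichever library was left out and under the other settings.

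In Cal27, 5 members were higher with IL-8 and 12 lower by edgeR, where 22.7% of all genes were higher and 16.7% lower. The members' median log2 change was -0.19, against 0.004 over all genes. By role, 2 of 6 IkB proteins and 2 of 6 adaptors rose, while 3 adaptors, 2 brakes and 4 of the 6 other induced genes fell. The HN4-only genes read in these libraries, given above, moved with these results; their part was not tested, and in bulk libraries fewer cells of a type and less RNA per cell cannot be told apart. CCL2 stood at 949.6, 1015 and 1009 CPM untreated and 514, 559 and 279 with IL-8 (log2 change -1.15, SE 0.18, edgeR adjusted p = 0.000195), and without library 3 the change was -0.91 (edgeR adjusted p = 1.72e-16). TNFRSF9 went from 62.0, 67.0 and 68.1 to 29.9, 29 and 15.7 CPM (log2 change -1.42, SE 0.19, edgeR adjusted p = 1.8e-05). All IL-8 libraries of both genes lay below all untreated ones, library 3 the lowest. BIRC3 went from 181, 228 and 221 to 141, 139.7 and 109 CPM (log2 change -0.70, SE 0.10, edgeR adjusted p = 3.63e-05). TNF ran the other way from HN4 and HN6, at 29.2, 31.7 and 31.9 CPM untreated and 41.5, 44.9 and 48.6 with IL-8 (log2 change 0.53, SE 0.085, edgeR adjusted p = 0.000123), and rose without library 3 too, by 0.46 (edgeR adjusted p = 1.04e-05). NFKBID rose from 3.72, 3.52 and 3.57 to 6.17, 5.59 and 6.90 CPM, with all 3 libraries in step (log2 change 0.77, SE 0.12, edgeR adjusted p = 0.000106). Of the 17 calls 14 were kept whichever library was left out, and those of REL, NFKBIB and BIRC2 were not. Under the other settings 16 were kept, TNFAIP8 being lost. The spread was shared with the other lines. With the 6 libraries of this comparison fitted alone, 2588 of 16611 genes were called, against 7247 of 18398, and fewer members passed, as given below.

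For NFKBIB and TRAF2 most of the Cal27 difference lay in library 3. NFKBIB, which encodes IkB beta, stood at 44.5, 32.7 and 32.0 CPM untreated and 42.4, 47.7 and 106 with IL-8 (log2 change 0.84, SE 0.24, edgeR adjusted p = 0.0109). Libraries 1 and 2 lay at the top of or just above the untreated range, so the groups overlapped, and without library 3 the log2 change was 0.29 (edgeR adjusted p = 0.0439). Its call was lost without untreated library 3 (log2 change 0.75, edgeR adjusted p = 0.0502). TRAF2, a ubiquitin ligase adaptor, stood at 40.1, 37.8 and 39.2 CPM untreated and 53.5, 45.0 and 98.0 with IL-8 (log2 change 0.74, SE 0.19, edgeR adjusted p = 0.00579), and without library 3 the change was 0.32 (edgeR adjusted p = 0.0015). Across the 35 members library 3 stood more than 1.5 times above the mean of libraries 1 and 2 in 6 and below that mean divided by 1.5 in 11, while libraries 1 and 2 differed by that much in 0. That count was not made over all genes, but library 3 stood apart there too. A chi-square of the difference between 2 libraries, per degree of freedom, was 91.99 for libraries 1 and 3 over 18490 genes. It was 94.3 for libraries 2 and 3, and 2.063 for libraries 1 and 2. The gaps were thus not particular to the members. The low share of mitochondrial reads in library 3, given above, goes with these gaps and its part in them was not tested. Without library 3, whose spread enters the shared fit of all lines, members called went from 17 to 24 in Cal27 (7 higher and 17 lower, 16 of the 17 kept), from 14 to 23 in HN4 (1 higher and 22 lower, all 14 kept) and from 5 to 13 in HN6 (3 higher and 10 lower, all 5 kept). Over all genes, the count called went from 7247 to 7884 in Cal27, from 2572 to 5738 in HN4 and from 2837 to 6194 in HN6, of 18916 genes tested without it. Among the genes gained were NFKBIA, RELB and TNIP1 in HN4 and NFKBIA, TNFAIP3 and SOD2 in HN6, all lower.

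**Figure D3:**
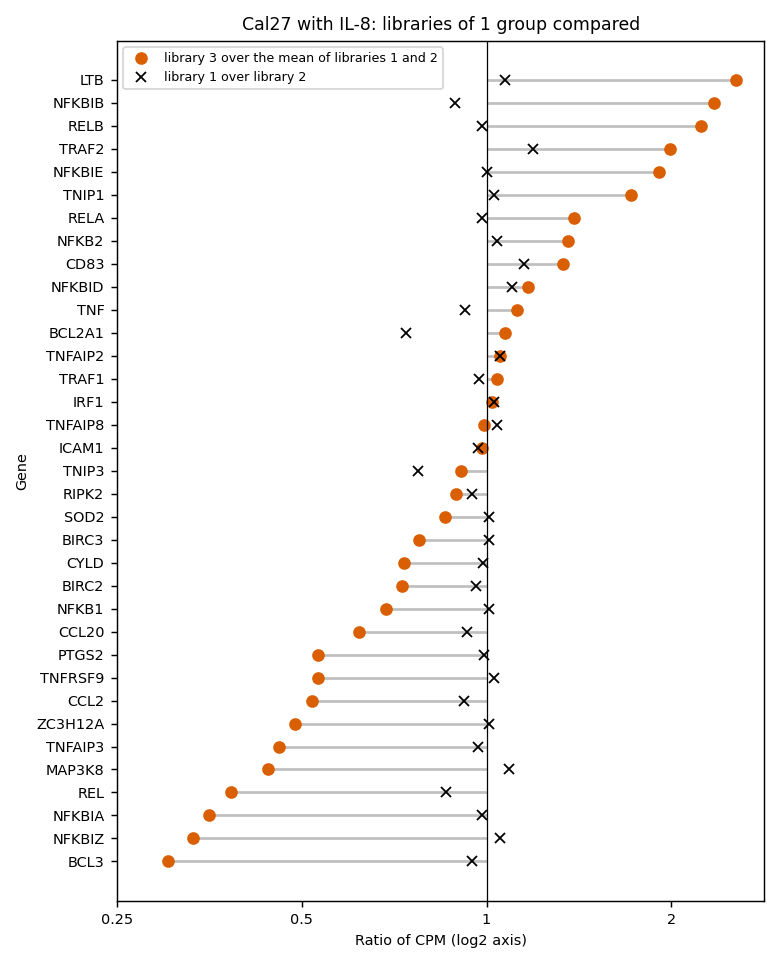
Ratios of CPM between libraries of Cal27 with IL-8 for the 35 genes, on a log2 axis: dots are library 3 over the mean of libraries 1 and 2, and crosses are library 1 over library 2. The dots span from 0.303 for BCL3 to 2.55 for LTB, while libraries 1 and 2 stay within 1.5 times of each other for all 35.

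The IL-8 response differed among the lines in 16 of 35 members in an edgeR test on 2 degrees of freedom, where 40.2% of all genes differed. Of these 16 calls 10 were kept whichever library was left out. TNF had the smallest adjusted p of the members (1.96e-08 by edgeR), with log2 differences of -0.81 in HN4, -1.23 in HN6 and 0.53 in Cal27. TNFAIP2 had log2 differences of -0.44, 0.30 and -0.037 in the same order (edgeR adjusted p = 2.16e-05), and TRAF1 of -0.91, 0.21 and -0.70 (edgeR adjusted p = 1.9e-05). BIRC3 was called lower in all 3 lines, with log2 changes of -0.50, -0.80 and -0.70, and its difference among lines did not pass (0.223 by edgeR, adjusted p). NFKBIA and TNFAIP3 did not pass it either, at edgeR adjusted p-values of 0.77 and 0.199.

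In HN4, as labelled, 24 of 35 members were higher with ACLY than with vector and 1, NFKBID, was lower by edgeR, where 18.9% of all genes were higher and 19.1% lower. The members' median log2 change was 0.43, against 0.013 over all genes. By role, 3 of 5 subunits, 3 of 6 IkB proteins, 4 of 5 brakes, 3 of 4 cytokines, all 3 surface proteins and all 6 other induced genes were higher. Since the ACLY level runs against these labels, the direction holds for the libraries labelled so. LTB stood at 1.67, 2.41 and 1.68 CPM labelled vector and 5.61, 5.40 and 9.06 labelled ACLY (log2 change 1.81, SE 0.23, edgeR adjusted p = 1.11e-07). TRAF1 stood at 5.26, 4.93 and 6.46 and 13.9, 11.9 and 11.7 CPM (log2 change 1.17, SE 0.13, edgeR adjusted p = 4.91e-09). RELB stood at 24.2, 26.9 and 24.4 and 53.1, 45.4 and 56.8 CPM (log2 change 1.05, SE 0.087, edgeR adjusted p = 9.82e-12). CCL20 stood at 40.6, 35.4 and 41.2 and 81.5, 75.6 and 60.4 CPM (log2 change 0.90, SE 0.091, edgeR adjusted p = 1.53e-09), and SOD2 at 614, 610.0 and 589.6 and 977, 974 and 1235 CPM (log2 change 0.82, SE 0.061, edgeR adjusted p = 7.73e-12). None of these 5 genes had overlapping groups. TNFRSF9, counted above among the surface proteins, had 3, 1 and 1 reads labelled vector and 5, 11 and 13 labelled ACLY, too few for a fold. BCL2A1, counted above among the other induced genes, was near the limit too. It stood at 0 CPM labelled vector and 0.264 ± 0.237 CPM (SD, n = 3) labelled ACLY. Without library 3 labelled ACLY, the one low in mitochondrial reads, 26 members were called and all 25 were kept. In a fit of all 36 libraries the calls of NFKBIZ and ZC3H12A were lost (edgeR adjusted p = 0.569 and 0.208).

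The direction of the 2 HN4 experiments was compared gene by gene. Of the 14 members called with IL-8 and the 25 called in the labelled plasmid comparison, 13 were called in opposite directions (92.9% of the first and 52% of the second) and 0 in the same direction. With the HN4 plasmid groups exchanged, the 13 would be in the same direction and 0 opposite. Of all 2141 genes called in both, 100% were opposite as labelled, so the members did as all genes did. The 2 comparisons share no library. ACLY itself was high in the IL-8 libraries and in those labelled vector, as given above.

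In HN6, where ACLY followed its label, 23 members rose with the ACLY plasmid and 6 fell by edgeR, where 26.8% of all genes were higher and 24.9% lower. The members' median log2 change was 0.52, against 0.036 over all genes. By role, 4 of 5 brakes, 4 of 6 IkB proteins, 4 of 6 adaptors, 3 of 4 cytokines and 5 of 6 other induced genes rose, while among the 5 subunits 1 rose and 1 fell. SOD2 stood at 171, 164 and 153 CPM with vector and 494, 505 and 505 with the ACLY plasmid (log2 change 1.63, SE 0.063, edgeR adjusted p = 4.51e-19), the largest rise among the named members there. MAP3K8, a kinase held by p105, went from 13.4, 13.1 and 10.4 to 30.8, 31.9 and 31.0 CPM (log2 change 1.34, SE 0.11, edgeR adjusted p = 8.58e-13). CCL20 went from 3.33, 2.25 and 2.91 to 6.73, 7.23 and 7.43 CPM (log2 change 1.34, SE 0.16, edgeR adjusted p = 1.64e-08), still far below its level in the other lines. PTGS2 went from 3.79, 3.15 and 4.51 to 8.63, 8 and 9.62 CPM (log2 change 1.20, SE 0.13, edgeR adjusted p = 1.03e-09). CD83 was 1 of the 6 members that fell, with NFKB1, NFKBIB, NFKBID, TRAF2 and RIPK2, and went from 30.9, 28.9 and 29.9 to 10.7, 11.9 and 11.2 CPM (log2 change -1.41, SE 0.09, edgeR adjusted p = 2.39e-15). LTB, a rare transcript here, went from 0.459, 0.338 and 0.571 to 1.04, 0.993 and 1.07 CPM (log2 change 1.17, SE 0.39, edgeR adjusted p = 0.0129), a call lost without vector library 2 (log2 change 0.99, edgeR adjusted p = 0.0639). TNFAIP3 rose with no overlap (log2 change 0.96, SE 0.045, edgeR adjusted p = 8.78e-19), as did TNF, from 20.8, 24.4 and 19.4 to 33.4, 28.8 and 29.5 CPM (log2 change 0.51, SE 0.091, edgeR adjusted p = 1.49e-05). Of the 29 calls 25 were kept whichever library was left out and 28 under the other settings. TNF and BIRC3, lower with IL-8 in HN6, were both higher with the ACLY plasmid, while 3 of the 5 members called with IL-8 moved the same way in both experiments (60% of those 5 and 10.3% of the 29). Of the 2203 genes of any kind called in both, 91.7% moved the same way.

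In Cal27, 20 members fell with the ACLY plasmid and 10 rose by edgeR, where 29% of all genes were lower and 34.2% higher. The members' median log2 change was -0.17, against 0.027 over all genes. By role, all 3 surface proteins, 5 of 6 other induced genes, 3 of 5 brakes and 3 of 5 subunits fell, and 3 of 6 IkB proteins rose. TNFRSF9 stood at 69.0, 70.7 and 68.8 CPM with vector and 8.46, 7.30 and 7.53 with the ACLY plasmid (log2 change -3.17, SE 0.10, edgeR adjusted p = 2.45e-24). CCL2 went from 959, 986 and 975 to 266, 262 and 250.2 CPM (log2 change -1.92, SE 0.058, edgeR adjusted p = 1.21e-24). TRAF1 went from 33.1, 32.0 and 34.9 to 11.2, 11.3 and 13.7 CPM (log2 change -1.48, SE 0.11, edgeR adjusted p = 6.92e-14). These 3 genes, all highest in Cal27 controls, had no overlap between groups. BIRC3 went from 197, 234 and 183 to 81.7, 77.7 and 89.3 CPM (log2 change -1.32, SE 0.084, edgeR adjusted p = 1.36e-12), and SOD2 from 969, 964 and 939 to 448, 430.4 and 438 CPM (log2 change -1.14, SE 0.062, edgeR adjusted p = 5.3e-16). CYLD, a deubiquitinase that removes the chains on which signalling depends, went from 101, 116 and 104 to 56.3, 55.9 and 51.2 CPM (log2 change -0.98, SE 0.062, edgeR adjusted p = 1.01e-15). TNF again rose, from 26.9, 29.7 and 29.3 to 50.1, 49.9 and 50.8 CPM (log2 change 0.80, SE 0.086, edgeR adjusted p = 6.17e-10). Of the 30 calls 26 were kept whichever library was left out. Under the other settings 23 were kept, and NFKB2, RELB, NFKBIA, BCL3, TNIP1, ZC3H12A and ICAM1 were lost under at least 1 of them.

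The Cal27 calls of both experiments were also set side by side. All 17 members called with IL-8 were called in the same direction with the ACLY plasmid (100% of the 17 and 56.7% of the 30), in libraries that the 2 comparisons do not share. So were 100% of the 6721 genes of any kind called in both, so the members did not differ from other genes in this. Both Cal27 groups also carried reads of HN4-only genes, so each call was set against the level of HN4. With IL-8, 14 of 17 called members moved towards untreated HN4 (82.4%, against 88.4% of all called genes). With the plasmid 23 of 30 did (76.7%, against 86%). TNF, PTGS2 and TNIP3 moved away in both. TNF in Cal27 with either agent stood above every library of the Cal27 controls and of all HN4 groups, and TNIP3 and PTGS2 stood below all of them. With the plasmid NFKBIA and NFKBIB also stood above that span, and REL, BIRC2 and SOD2 below it. The other 14 members called with IL-8 and 22 called with the plasmid stood within it or overlapped it. These counts are descriptions, and the part of the HN4-only signal in these levels was not tested.

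**Figure D4:**
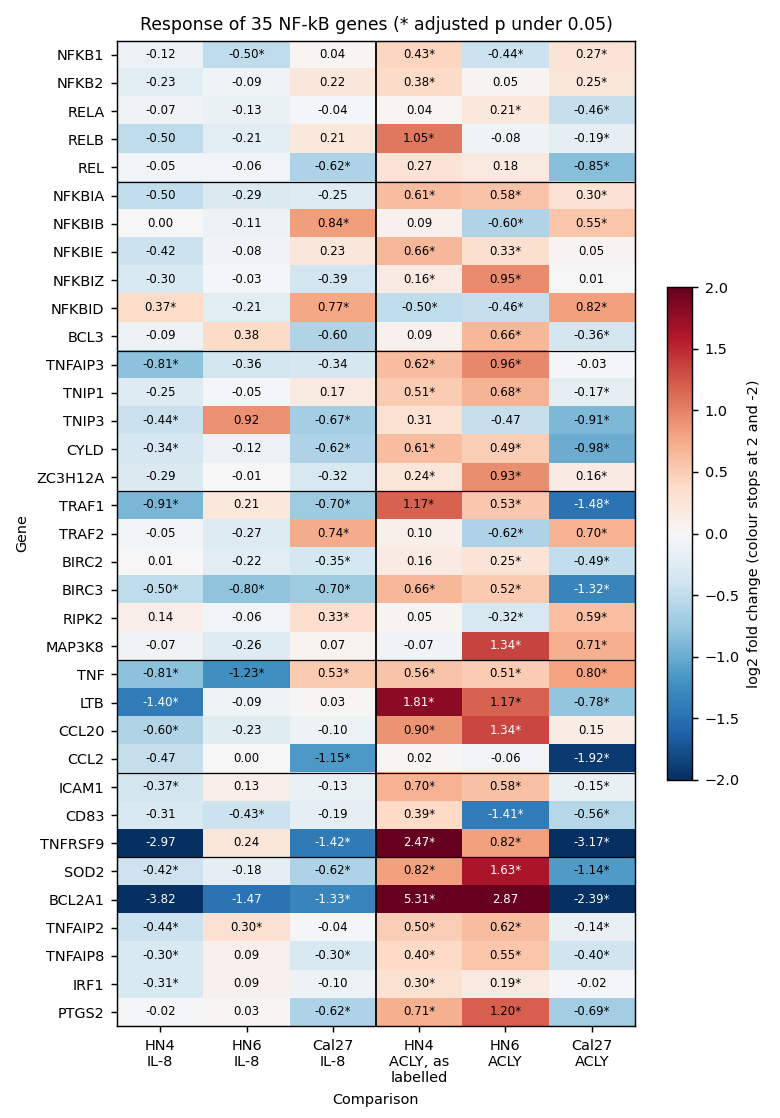
Colour map of the log2 change of each of the 35 genes with IL-8 against untreated and with the ACLY plasmid against vector in the 3 lines, with * where the edgeR adjusted p was under 0.05. HN4 plasmid columns are as labelled, and BCL2A1 and TNFRSF9 lie near the reading limit in HN4. With the plasmid, HN4 as labelled and HN6 share mostly positive changes. With the HN4 groups exchanged, 20 of the 22 members called in both would be opposite. Cal27 has 20 members lower and 10 higher, where 29% of all genes were lower and 34.2% higher.

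The plasmid response differed among lines in 34 of 35 members by edgeR, where 70.9% of all genes differed, and TNF alone did not pass (0.0838, edgeR adjusted p). TNF was called higher by 0.51 in HN6, 0.80 in Cal27 and, as labelled, 0.56 in HN4 on the log2 scale. With the HN4 groups exchanged its HN4 change would be -0.56, its difference among lines would pass (edgeR adjusted p = 3.92e-10) and TNIP3 alone would not (edgeR adjusted p = 0.0859), so which member fails the test rests on those labels. Of the 22 members called in both HN4, as labelled, and HN6, 20 had the same direction, with NFKB1 and CD83 opposite. Those 20 were 80% of the 25 called in HN4 and 69% of the 29 called in HN6. With the HN4 groups exchanged the 22 would be 2 in the same direction and 20 opposite. Of the 4809 genes of any kind called in both, 85.2% had the same direction as labelled. Of the 24 members called in both HN6 and Cal27, 19 were opposite, where 69.7% of the 6837 genes called in both were opposite. The other 5 had the same direction, and they were NFKBIA, ZC3H12A, MAP3K8, TNF and CD83. Those 5 were 17.2% of the 29 called in HN6 and 16.7% of the 30 called in Cal27. SOD2 changed by 0.82, 1.63 and -1.14 in HN4, HN6 and Cal27.

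The remaining members are given by their range, as group means ± SD with n = 3. Per kilobase of transcript, over all 12 groups, CCL2 was the most abundant member (112.4 CPM per kilobase), almost all of it in Cal27 libraries, followed by TNFAIP2 (92.8), NFKBIA (85.5), TNIP1 (58.8) and TNFAIP3 (57.6). BCL2A1 was the least abundant (0.889 CPM per kilobase). TNFAIP8, a regulator of cell survival, ranged least, from 22.6 ± 2.39 CPM in the HN4 libraries labelled vector to 34.4 ± 1.61 CPM in untreated Cal27. With the 12 groups in order of level, TNFAIP8 and NFKBIE had no neighbouring groups whose libraries did not overlap, out of 11 steps. TNFAIP3, BIRC3, RIPK2, TNF, SOD2 and PTGS2 each had 6 such steps. Steps were not counted over all genes, so whether these numbers are unusual is not known. TNIP1, which binds TNFAIP3, stood highest in the HN4 libraries labelled ACLY, at 482 ± 13.7 CPM, and lowest in HN6 with vector, at 196 ± 3.56 CPM. ZC3H12A, an RNase that degrades cytokine messages, reached 280.0 ± 3.83 CPM in HN6 with the ACLY plasmid against 147 ± 10.9 CPM with vector. NFKBIZ, a nuclear IkB protein that helps secondary targets, stood at 102 ± 2.89 CPM and 52.9 ± 2.59 CPM in the same groups (log2 change 0.95, SE 0.057, edgeR adjusted p = 5.65e-16). BCL3, another nuclear IkB protein, was highest in the same plasmid group, at 46.1 ± 2.04 CPM. ICAM1, the leukocyte adhesion molecule, ranged from 90.2 ± 9.58 CPM in untreated HN6 to 216 ± 19.6 CPM in the HN4 libraries labelled ACLY. IRF1, an interferon response factor, stood at 117 ± 7.76 CPM in untreated Cal27 and at 58.0 ± 2.57 CPM in the HN4 libraries labelled vector. RIPK2, the kinase of NOD receptors, was highest in HN4, at 75.3 ± 2.42 CPM labelled ACLY, and lowest in HN6 with the ACLY plasmid, at 22.8 ± 0.960 CPM. BIRC2, the ligase cIAP1, ranged from 50.2 ± 2.79 CPM in HN6 with IL-8 to 122 ± 12.1 CPM in untreated Cal27. NFKBIE, which encodes IkB epsilon, had its lowest mean in the HN4 libraries labelled vector, at 24.3 ± 0.811 CPM.

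The wider pathway, given by 41 receptors, kinases, adaptors and brakes outside the 35 members, moved in both directions. With IL-8, 3 rose and 3 fell in HN4 (6.89% and 7.09% of all genes), 2 rose and 6 fell in HN6 (7.61% and 7.81%), and 12 rose and 10 fell in Cal27 (22.7% and 16.7%). With the plasmid, 6 were higher and 7 lower in HN4 as labelled (18.9% and 19.1% of all genes), 15 rose and 11 fell in HN6 (26.8% and 24.9%), and 23 rose and 13 fell in Cal27 (34.2% and 29%). The IL-8 response differed among lines in 19 of them (40.2% of all genes) and the plasmid response in 31 (70.9%). In HN4, IRAK2, a kinase-like adaptor of IL-1 receptors, changed by -0.72 (SE 0.22, edgeR adjusted p = 0.0345) with IL-8, and MALT1, a scaffold protease, by 0.60 (SE 0.08, edgeR adjusted p = 9.87e-05). Both went the other way in the labelled plasmid comparison, by 1.08 (SE 0.057, edgeR adjusted p = 9.7e-17) and -0.71 (SE 0.079, edgeR adjusted p = 5.54e-09). CXCL8, the gene of IL-8 itself and an NF-kB target outside the 35, changed by -1.13 (SE 0.077, edgeR adjusted p = 7.05e-08) in HN4, -1.35 (SE 0.078, edgeR adjusted p = 5.51e-09) in HN6 and -0.20 (SE 0.075, edgeR adjusted p = 0.0491) in Cal27 with IL-8. In HN6 with the plasmid, CD40, a TNF receptor family member, rose by 2.00 (SE 0.19, edgeR adjusted p = 4.32e-11). PDLIM2, which ends RELA activity in the nucleus, changed in HN6 with IL-8 by 0.80 (SE 0.15, edgeR adjusted p = 0.00184), and RIPK1, the kinase recruited to TNF receptors, by -0.46 (SE 0.071, edgeR adjusted p = 0.000316). SHARPIN, a subunit of the linear ubiquitin ligase, changed in Cal27 with IL-8 by 1.11 (SE 0.19, edgeR adjusted p = 0.000191). TRADD, the adaptor of the TNF receptor, changed in HN6 with the plasmid by 0.95 (SE 0.15, edgeR adjusted p = 7.49e-05). TNFRSF1B, the other TNF receptor, had 34, 23 and 29 reads in Cal27 with vector and 1, 0 and 2 with the plasmid. IRAK3, a brake on IL-1 and Toll-like receptor signalling, stood at 21.5, 23.3 and 25.4 CPM in untreated HN4 and 0.266, 0.210 and 0.0992 in untreated Cal27. In Cal27 it reached 4.86, 5.16 and 4.17 CPM with IL-8 and 9.42, 9.26 and 9.88 with the plasmid, against 0.149, 0.265 and 0.0520 with vector. Its level in both Cal27 treated groups thus lay between untreated Cal27 and untreated HN4. TLR3, a receptor for double-stranded RNA, changed in Cal27 by -1.07 (SE 0.16, edgeR adjusted p = 7.11e-05) with IL-8 and by -2.16 (SE 0.15, edgeR adjusted p = 2.1e-14) with the plasmid, and untreated Cal27 exceeded untreated HN4 in it by 2.83 (SE 0.18, edgeR adjusted p = 2.32e-10).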

How the data were processed

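Gene counts were deposited by the authors as 1 table of 58735 genes and 36 libraries. Per the submitters' processing notes they used CASAVA, HISAT2 2.0.5, featureCounts 1.5.0-p3, DESeq2 and hg38, with strand and annotation release not given in the sources used here. No per-sample column was left unmapped (0). Symbol SOD2 stands on 2 identifiers, and the one with 391465 reads was used, not the one with 17. Each experiment was fitted separately (18 libraries, 12 residual degrees of freedom) with edgeR 4.0.16 in R 4.3.3: filterByExpr (minimum count 10, minimum total 15), TMM and the quasi-likelihood test, with Benjamini-Hochberg adjustment over 18398 and 18556 genes and a threshold of 0.05. All 35 members passed the filter in both. Changes are log2, and "kept whichever library was left out" covers the 18 libraries of the experiment. The fit was tested on simulated data.

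Members and lists were chosen with earlier results of these data known. Members described with values in every library were, per comparison, up to 6 called members above a log2 CPM of 1 with the largest changes, plus the subunits, NFKBIA and TNFAIP3; pathway genes were up to 3 with the largest changes; TNF and the members given by range were added after values were seen. Alternatives were DESeq2 1.42.0, other scalings and filters, a replicate block, 6 libraries alone, vector groups for lines and each library left out; fits of all 36 libraries across experiments, exchanged HN4 plasmid groups and the Cal27 span against HN4 were added after seeing the data. Every replicate pair differed by more than sampling noise.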

Additional observations from a re-analysis of the deposited data

Results flagged for a closer look

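The change with IL-8 differed among HN4, HN6 and Cal27, by an edgeR test of the interaction, in 16 of 35 members, where 40.2% of all genes differed. Of these, 10 were kept whichever library was left out and 10 under the other settings. Among the subunits, the edgeR adjusted p was 0.0151 for NFKB1 and 0.0443 for NFKB2. Among the IkB proteins, the edgeR adjusted p was 0.000707 for NFKBID. Among the other brakes, the edgeR adjusted p was 0.0429 for TNIP3 and 0.02 for CYLD. Among adaptors, ligases and kinases, the edgeR adjusted p was 1.9e-05 for TRAF1, 0.0147 for TRAF2 and 0.0183 for RIPK2. Among the cytokines, the edgeR adjusted p was 1.96e-08 for TNF and 0.0307 for LTB. Among the surface proteins, the edgeR adjusted p was 0.00211 for ICAM1 and 0.000316 for TNFRSF9. Among the other induced genes, the edgeR adjusted p was 0.00682 for SOD2, 2.16e-05 for TNFAIP2, 0.0182 for TNFAIP8 and 0.0146 for IRF1. NFKBID had log2 differences of 0.37, -0.21 and 0.77 in HN4, HN6 and Cal27, and ICAM1 of -0.37, 0.13 and -0.13. TNFRSF9 had few reads in HN4 and log2 differences of 0.24 in HN6 and -1.42 in Cal27.

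The change with the ACLY plasmid, as labelled in HN4, differed among the lines by the same edgeR test in 34 of 35 members, where 70.9% of all genes differed. The calls of NFKB2, NFKBIA and NFKBIE were lost in a fit of all 36 libraries (edgeR adjusted p = 0.0517, 0.52 and 0.0595). With the HN4 groups exchanged 34 of 35 members and 73.1% of all genes would differ. Among the subunits, the plasmid response gave an edgeR adjusted p of 1.11e-10 for NFKB1, 0.00494 for NFKB2, 3.23e-08 for RELA, 3.04e-11 for RELB and 2.59e-07 for REL. Among the IkB proteins, the plasmid response gave an edgeR adjusted p of 0.000181 for NFKBIA, 3.71e-10 for NFKBIB, 0.0017 for NFKBIE, 2.6e-12 for NFKBIZ, 7.47e-07 for NFKBID and 7.32e-09 for BCL3. Among the other brakes, the plasmid response gave an edgeR adjusted p of 5.18e-15 for TNFAIP3, 4.41e-14 for TNIP1, 0.000224 for TNIP3, 7e-18 for CYLD and 1.06e-10 for ZC3H12A. Among adaptors, ligases and kinases, the plasmid response gave an edgeR adjusted p of 8.22e-16 for TRAF1, 3.7e-09 for TRAF2, 3.41e-07 for BIRC2, 2.35e-13 for BIRC3, 1.1e-09 for RIPK2 and 4.07e-09 for MAP3K8. Among the cytokines, the plasmid response gave an edgeR adjusted p of 1.88e-08 for LTB, 6.66e-07 for CCL20 and 9.72e-08 for CCL2. Among the surface proteins, the plasmid response gave an edgeR adjusted p of 1.48e-11 for ICAM1, 7e-14 for CD83 and 5.47e-23 for TNFRSF9. Among the other induced genes, the plasmid response gave an edgeR adjusted p of 3.07e-21 for SOD2, 1.87e-05 for BCL2A1, 1.22e-11 for TNFAIP2, 2.83e-08 for TNFAIP8, 0.00295 for IRF1 and 4.92e-13 for PTGS2. TNIP1 had log2 differences of 0.51, 0.68 and -0.17 in HN4, HN6 and Cal27, CYLD of 0.61, 0.49 and -0.98, and TNFAIP3 of 0.62, 0.96 and -0.026. In each the sign in Cal27 was opposite to that in HN6, though TNFAIP3 did not pass the edgeR test in Cal27 (adjusted p = 0.63). The Cal27 call of TNIP1 was lost in a fit of all 36 libraries (log2 change -0.16, edgeR adjusted p = 0.187). The Cal27 plasmid group also carried reads of HN4-only genes, and their part in these differences among lines was not tested.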

How the results depend on the processing

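Leaving out 1 library at a time, the number of members called by edgeR ranged from 10 to 23 (14 with all libraries) with IL-8 in HN4, 5 to 13 (5) in HN6 and 14 to 24 (17) in Cal27, and from 11 to 26 (16) for the IL-8 difference among lines. It ranged from 24 to 26 (25) with the plasmid in HN4, 27 to 30 (29) in HN6, 27 to 30 (30) in Cal27 and 34 to 35 (34) for the difference among lines. Between untreated lines it ranged from 21 to 33 (27) for HN6 against HN4, 20 to 33 (24) for Cal27 against HN4 and 28 to 32 (30) for Cal27 against HN6. The highest IL-8 counts all came without library 3 of Cal27 with IL-8. With the 6 libraries of a comparison fitted alone, 24, 12 and 10 members were called with IL-8 in HN4, HN6 and Cal27. The Cal27 IL-8 change ranged from -0.30 to 0.42 for RELB, -0.15 to 0.33 for TNIP1 and -0.58 to 0.28 for LTB with a library left out, each lowest without library 3. With genes averaging at least 5 CPM, NFKBIZ in Cal27 with the plasmid turned to -0.12. With the vector groups, as labelled, in place of untreated ones, HN6 against HN4 turned to 0.24 for RELB, 0.089 for NFKBIA, 0.21 for CYLD, 0.73 for TRAF1, 0.031 for TNFAIP8 and 0.053 for IRF1. In the same way Cal27 against HN4 turned to 0.40 for NFKBIE, 0.20 for TNIP1, 0.31 for ICAM1 and 0.21 for TNFAIP2. The cause of these turns was not tested. With HN4-only genes taken at 10 CPM and 0.5 CPM instead, their share was 0.264 in Cal27 with IL-8 and 0.464 with the plasmid. DESeq2 left 378 of 385 single results on their side of the threshold. Over all genes, the count called with IL-8 in HN4 was 2572 and ranged from 1401 to 5738 with a library left out (6551 with 6 libraries alone), in HN6 it was 2837 and ranged from 1742 to 6194 (6025 alone), and in Cal27 it was 7247 (2588 alone). With genes averaging at least 5 CPM it was 7758 in place of 11700 for Cal27 against HN4 and 8196 in place of 12583 for Cal27 against HN6. Scaling by library size alone split the HN4 IL-8 calls 792 higher and 1586 lower (1268 and 1304 with TMM) and the HN6 ones 1695 and 939 (1400 and 1437). Depth limits the results for TNFRSF9 and BCL2A1 in HN4 and for BCL2A1, TNIP3 and CCL2 in HN6.

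With the replicate number as a block, members called stayed at 14, 5 and 17 with IL-8, 25, 29 and 30 with the plasmid, 27, 24 and 30 between lines, and 16 and 34 for the differences among lines, and 385 of 385 single results kept their side of the threshold. The labels do not say whether the numbers pair the libraries. Deviations of libraries of the same number correlated at -0.147 to 0.14, with both ends in the IL-8 experiment of Cal27. Low correlations cannot show that the libraries were unpaired.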
